A study of Rattus norvegicus with 13 samples.

Results

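Of the 13 hypothalamus arrays in the series, 9 make up the comparison described here, chosen by their diet labels: 5 from rats fed a high-fat safflower oil diet and 4 from rats fed a low-fat soybean oil diet. All were male Sprague-Dawley rats aged 14 to 15 weeks that had eaten their diet freely for 2 months. The safflower diet supplied 35% of energy as safflower oil, which is rich in the omega-6 fatty acid linoleic acid. The low-fat diet supplied 16% of energy as soybean oil, so the amount and the kind of oil differed together between the groups and their effects cannot be told apart. The other 4 arrays, from rats on flaxseed oil at 35% of energy, entered the fit to estimate the spread between arrays. Nothing in the labels ties an array to 1 animal, so the p-values measure the spread between arrays, which may be technical.

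The comparison asks which hypothalamic transcripts differ after a diet rich in linoleic acid. Linoleic acid is an essential fatty acid that cells elongate and desaturate to arachidonic acid, from which prostaglandins and leukotrienes are made. Fatty acids are activated to acyl-CoA, then oxidised in mitochondria and peroxisomes or built into phospholipids. In the hypothalamus they are among the nutrient signals read by the neurons that control feeding and pituitary hormone release.

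Signals are the authors' RMA values on the log2 scale, where a difference of 1 is a doubling, and every change below is safflower minus low-fat. The 70580 transcript clusters gave 22093 genes with a single symbol, and the 16033 with a mean log2 signal of at least 6.58 were tested with limma. Neuropeptides of the hypothalamus were compared with its label, beside a median log2 signal of 8.10 over all genes tested. Oxt, oxytocin, ranged from 11.38 to 12.94 on the safflower and from 12.02 to 12.74 on the low-fat arrays. Pmch, the precursor of melanin-concentrating hormone, ranged from 10.59 to 12.32 and from 11.23 to 12.02 on the same arrays, and Hcrt, the precursor of orexin, from 8.59 to 10.09 and from 9.38 to 9.90. Sst, somatostatin, ranged from 9.61 to 10.39 and from 10 to 10.39, and Avp, vasopressin, from 8.22 to 9.09 and from 8.25 to 8.75. Pomc lay lower, from 7.49 to 8.23 and from 8.07 to 8.29, around the median of all genes. In dissected tissue, fewer cells of a type and less RNA per cell cannot be told apart.

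The arrays of the 2 diets differed in the spread of their signals. Over the tested genes the interquartile range averaged 1.582 ± 0.0645 on the safflower and 1.357 ± 0.0289 on the low-fat arrays (SD, n = 5 and 4), a difference of 0.224 (exact two-sided permutation p = 0.00794, the smallest that 5 against 4 arrays allow). After quantile normalization the difference was -0.0125 (exact permutation p = 0.310). Background features of the array, which match no rat transcript and are sorted by their number of G and C bases, were lower in the mean of the safflower than of the low-fat arrays for each class from 10 to 24 such bases. The change was largest at 14 bases, with means of 4.498 on the safflower and 4.77 on the low-fat arrays, and the arrays of the diets overlapped in every class. The highest background means were 8.159 on the safflower and 8.253 on the low-fat arrays, at 22 bases. After quantile normalization the difference was -0.0827 at 14 bases and lay between 0.0026 and 0.0671, higher with safflower, at 15 to 21 bases. The median log2 signal of all genes tested, 8.10, lay below the highest background means. Genes named below with mean signals under them include Ghrh, Ptgir, Ptger1, Aqp1 and Agrp, and on the higher side Agmo and Kitlg. The part of the spread and of these background signals in the results below was not tested, so each result is given on the deposited values and after quantile normalization, which gives every array the same distribution.

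On the deposited values 6377 of 16033 genes passed an adjusted p of 0.05, which is 39.8% of the genes tested, 3675 higher (22.9%) and 2702 lower (16.9%) with safflower. After quantile normalization 2326 genes (14.5%) passed, 1625 higher (10.1%) and 701 lower (4.37%). The share of calls that were higher was thus 57.6% on the deposited and 69.9% on the quantile-normalized values, against 68.0% with cyclic loess and 98.3% with median centring. Of the deposited calls 27.6%, and of the quantile calls 75.7%, were shared in the same direction (1761 genes), and 0 genes passed in opposite directions. The quantile count depended on single arrays: it was 880 and 1275 without low-fat arrays 1 and 2, and 1031, 1299 and 949 without safflower arrays 1, 3 and 5.

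Low-fat array 3 carried far more skeletal muscle transcript than the others, as described further below, so each fit was repeated without it. The deposited count was then 6436 (40.1%; 3035 higher, 3401 lower) and the quantile count 3107 (19.4%; 1754 higher, or 10.9%, and 1353 lower, or 8.44%). In the 4 fits together, deposited and quantile-normalized, each with and without low-fat array 3, 1480 genes (9.23%) passed in the same direction, 909 higher (5.67%) and 571 lower (3.56%). For 1091 genes (6.80%) the safflower and low-fat arrays also did not overlap under either scaling. The count of 1480 became 558 without low-fat array 2, 2379 without low-fat array 3 throughout, and 704, 867 and 662 without safflower arrays 1, 3 and 5. Without low-fat array 1 it was 0 by limma, with 1916 genes at an unadjusted p under 0.05 in each of the 4 fits, and some of those fits then held only 2 low-fat arrays. Low-fat array 1 had the narrowest interquartile range of all arrays, 1.3297, and the highest median of the background features, 5.102. Low-fat array 3 had 1.3406 and 4.331. Passing the 4 fits, which leave out only low-fat array 3, thus does not show that a call holds without low-fat array 1.

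**Figure D1:**
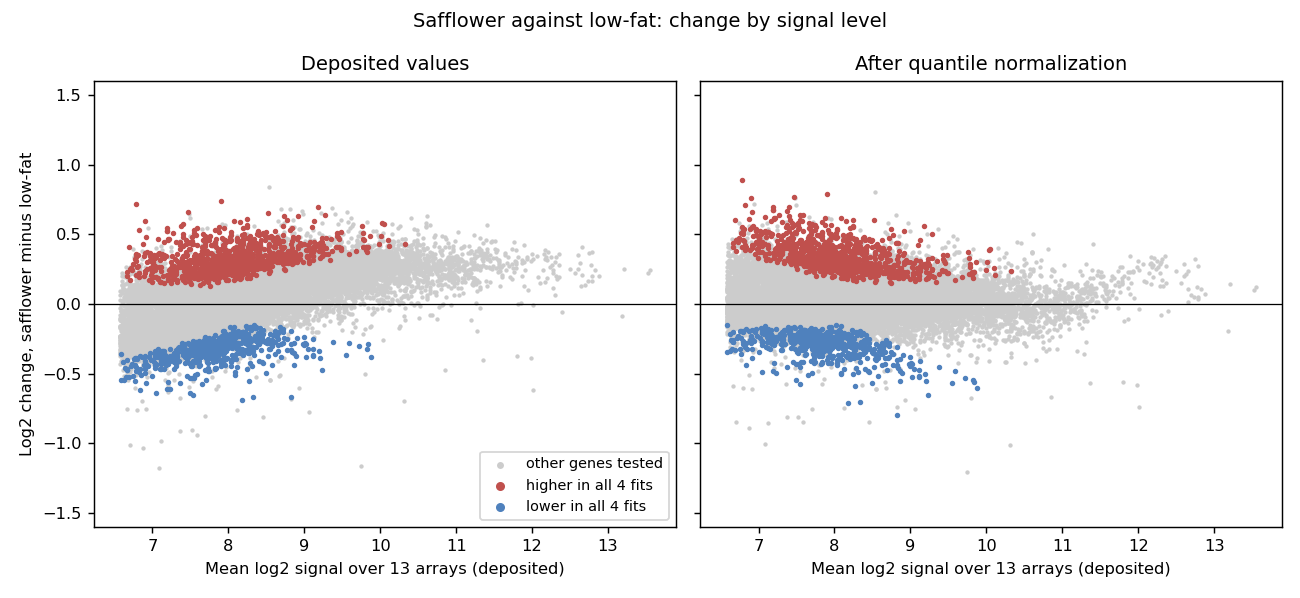
Each point is a gene, with its mean log2 signal over the 13 arrays on the x axis and its log2 change, safflower minus low-fat, on the y axis, on deposited values (left) and after quantile normalization (right). The 909 genes higher and 571 lower in all 4 fits are coloured. The genes higher in all 4 fits have a median log2 signal of 7.99 and those lower 7.83.

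Changes were small. Of the genes past the threshold, 31 higher and 20 lower reached a fold of at least 1.5 on the deposited values. After quantile normalization these were 34 and 8. Genes with as large a change that missed the threshold are not in these counts. The widths of the 95% interval to either side had a median of 0.165 on the deposited and 0.167 on the quantile-normalized log2 changes, from standard errors of 0.0775 on the deposited and 0.0777 on the quantile-normalized values. The median change of all genes tested was 0.07 and 0.04 under these scalings, and 0.03 and 0.00 without low-fat array 3.

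Among the genes that passed all 4 fits with no overlap, those with the highest changes after quantile normalization included Agmo, which cleaves ether lipids and so acts on a class of membrane lipid. Its deposited signals were 7.33, 6.69, 7.31, 6.94 and 7.27 on the safflower arrays, against 6.55, 6.52, 6.65 and 6.61 on the low-fat arrays. The low-fat mean of 6.581 lay at the filter on mean signal, 6.58, so the low-fat side was near the floor. Every safflower array lay above every low-fat array, with safflower array 2 nearest to them. The log2 change was 0.53 (SE 0.12, limma adjusted p = 0.00572) and 0.71 after quantile normalization (SE 0.12, adjusted p = 0.00946). Kitlg, the ligand of the Kit receptor, had 7.46, 7.51, 7.37, 7.52 and 7.54 on the safflower arrays, against 6.81, 7.22, 6.84 and 6.88 on the low-fat arrays. It rose by 0.54 (SE 0.14) on the deposited values and 0.70 after quantile normalization, and low-fat array 2 stood closest to the safflower arrays.

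The other leading genes on the higher side gained between 0.41 and 0.59 on the deposited values and between 0.59 and 0.76 after quantile normalization. They were lyza (0.59 and 0.76), Eloc (0.52 and 0.67), the elongin C subunit of ubiquitin ligases, Slf1 (0.48 and 0.66), which works with the SMC5/6 complex in DNA repair, and Ift70b (0.53 and 0.64), a part of the transport train of cilia. Cstf3 (0.50 and 0.63) takes part in the 3' end cleavage of mRNA, Tprkb (0.47 and 0.62) belongs to the complex that modifies tRNA, and Ggps1 (0.46 and 0.63) makes geranylgeranyl diphosphate for protein prenylation. Tlr3 (0.41 and 0.60) is the receptor of double-stranded RNA, and Vav3 had 0.49 and 0.60. Genes of mitochondria completed the group: Apool (0.46 and 0.61), of the inner membrane, Micu3 (0.59 and 0.60), which tunes calcium uptake, and Mrpl1 (0.53 and 0.59), a ribosomal protein. Tprkb did not pass on the deposited values without low-fat array 1 (0.35, adjusted p = 0.0578) or 2 (0.37, adjusted p = 0.0532). The low-fat mean of lyza, 6.624, lay close to the filter of 6.58.

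Among the 14 leading genes on the lower side, Tnni2 and Tcap belong to the contractile apparatus of skeletal muscle, Krtap5-8, Krtap4-6 and Krtap3-3 to the hair shaft, Lce3b and Sprr1b to the cornified envelope of skin, Prm2 to sperm chromatin, Vpreb1b to the receptor of early B cells and Rnase3 to the ribonucleases of granulocytes. Fgfbp1, which releases fibroblast growth factors, Prp2, Tmem210 and Ghrh, the growth hormone-releasing hormone of the arcuate nucleus, made up the rest. Rnase3 had 9.83, 9.90, 9.59, 9.80 and 9.44 on the safflower arrays, against 9.99, 10.07, 10.23 and 10.06 on the low-fat arrays (log2 change -0.38, SE 0.11, and -0.61 after quantile normalization). Prm2 had 8.96, 9.15, 8.95, 9.01 and 8.70 on the safflower arrays, against 9.37, 9.30, 9.38 and 9.25 on the low-fat arrays (-0.37, SE 0.08, and -0.52). For both genes the groups did not overlap, which was a condition for being listed.

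**Figure D2:**
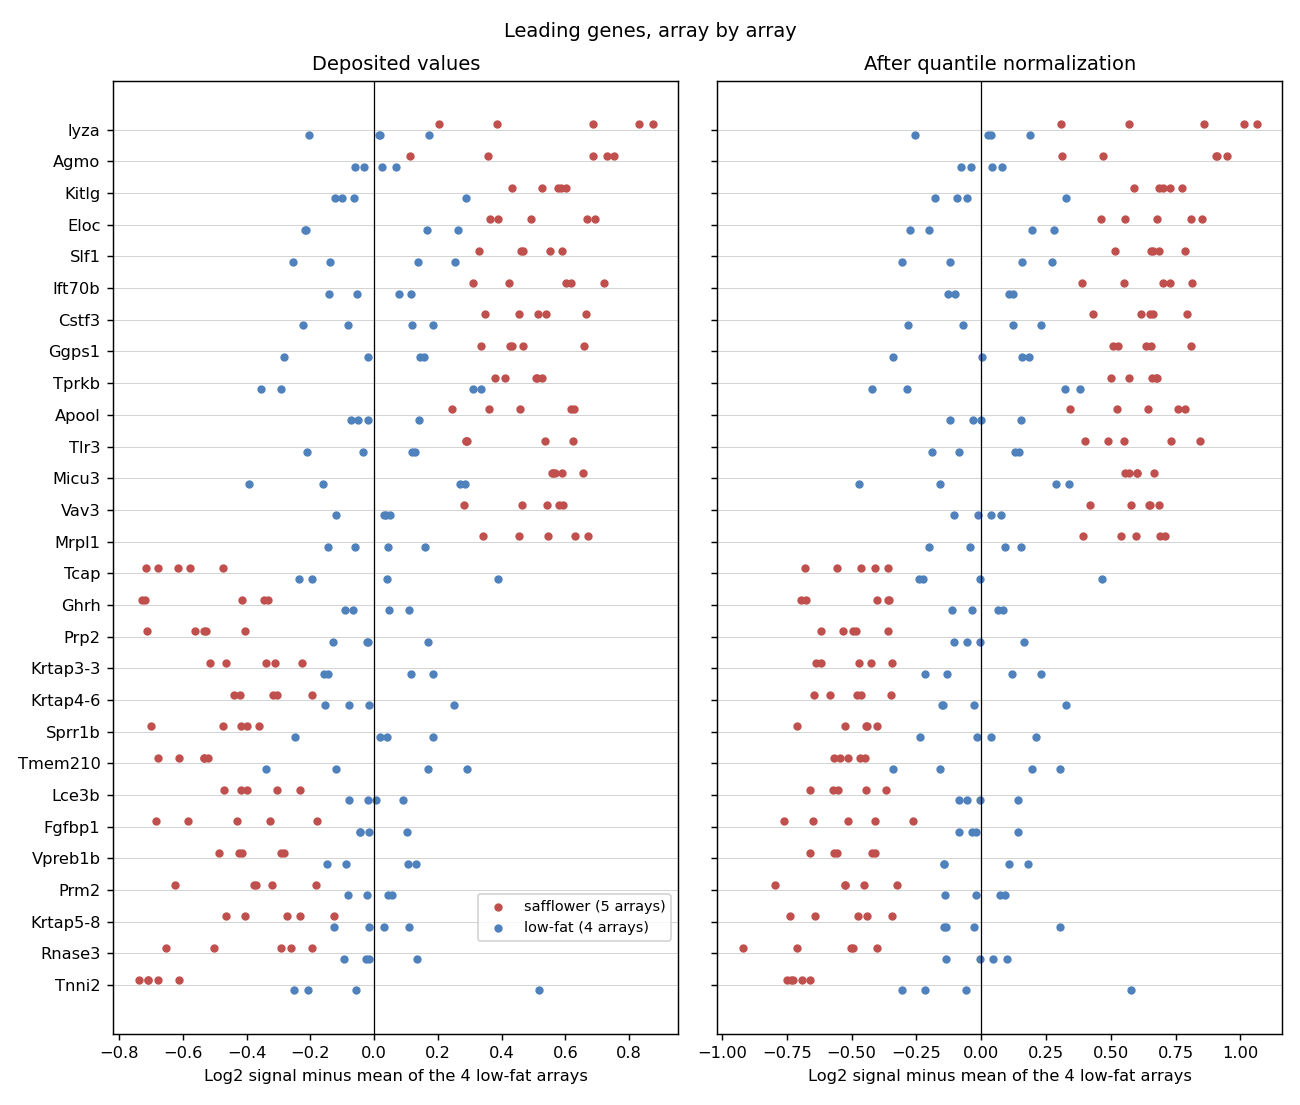
Log2 signal of each array minus the mean of the 4 low-fat arrays (x axis) for the leading genes on either side, 14 each by quantile-normalized change (y axis), on deposited values (left) and after quantile normalization (right). Red points are the 5 safflower and blue points the 4 low-fat arrays. Only genes in which the colours do not overlap were eligible to be shown. The genes were picked by the quantile-normalized change, which favours larger changes under that scaling, so the panels do not compare the scalings. Low-fat array 3 stands far to the right in Tnni2.

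Of 27 tested genes of fatty acid activation, elongation and desaturation, 12 rose on the deposited values and 0 fell (median change 0.23), beside 22.9% of all genes higher and a median of 0.07. After quantile normalization 2 rose (median 0.06), beside 10.1% and 0.04. Without low-fat array 3, 7 rose on the deposited values and 2 after quantile normalization (median -0.0295, beside -0.0013 for all genes). In all 4 fits 1 rose, beside 5.67%. The last was Acsl4, the acyl-CoA synthetase that prefers arachidonic acid. The shares and medians of all genes are the same beside each list that follows. The fatty acid list had a median log2 signal of 9.31, beside 8.10 for all genes, and other lists from 6.97 (pituitary) to 10.83 (neurons). Of the 9398 genes above a filter at the 75th percentile, 3036 were higher and 343 lower on the deposited values. Their median change was 0.162, and 0.0458 after quantile normalization. The part of signal level in the list counts was not tested. The lower shares of all genes were 16.9% on the deposited values, 4.37% after quantile normalization and 3.56% in all 4 fits. Acsl4 had deposited signals of 9.39, 9.34, 9.28, 9.22 and 9.34 on the safflower arrays, against 8.74, 8.93, 8.99 and 8.96 on the low-fat arrays, with no overlap. The log2 change was 0.41 (SE 0.07, limma adjusted p = 0.00379) and 0.27 (SE 0.07, adjusted p = 0.0226) after quantile normalization. Acsl3, another activating enzyme, rose by 0.34 on the deposited values and had 0.16 (adjusted p = 0.0625) after quantile normalization. Fads2 and Fads1, the desaturases that convert linoleic acid towards arachidonic acid, did not pass, with 0.22 and 0.24 on the deposited values (adjusted p = 0.102 and 0.054) and -0.11 and -0.08 after quantile normalization.

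Among genes of fatty acid oxidation, 12 of 34 rose on the deposited values (median 0.13) and 5 after quantile normalization (median 0.08), and none fell with all arrays. Without low-fat array 3, 10 rose and 1 fell on the deposited values, and 3 rose and 1 fell after quantile normalization (median 0.04). Abcd3, Hadhb and Etfdh passed in all 4 fits, 3 of 34, beside 5.67% of all genes. Abcd3, which carries fatty acyl-CoA into peroxisomes, had 9.86, 9.69, 9.75, 9.55 and 9.77 on the safflower arrays, against 9.20, 9.04, 9.28 and 9.30 on the low-fat arrays. Its log2 change was 0.52 (SE 0.07, limma adjusted p = 0.00379) and 0.35 after quantile normalization (SE 0.07, adjusted p = 0.0107), and the groups did not overlap. Etfdh, which hands electrons of acyl-CoA dehydrogenation on to ubiquinone, rose by 0.26 and 0.25. Cpt1a, the gate of long-chain fatty acids into mitochondria, did not pass (0.20, adjusted p = 0.116, and 0.10, adjusted p = 0.516).

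Hadhb and Hadha encode the beta and alpha subunits of the mitochondrial trifunctional protein, the enzyme of the last steps of long-chain fatty acid oxidation, and lie head to head on chromosome 6. In the RefSeq annotation of GRCr8, Hadhb spans chr6:31873404-31907557 on the minus strand and Hadha chr6:31907801-31947434 on the plus strand, with 244 bases between their starts. The promoter window of Hadhb from RefSeq (GRCr8, chr6:31907451-31907750, minus strand, 250 bases before to 50 after the start) is shown because most of it lies between the starts of both genes. The window is built on a start that lies inside the annotated Hadhb span. Capitals mark TGACCT, the reverse complement of AGGTCA, the core element of nuclear receptors such as the PPARs, whose first base is number 43 after the start of the window's annotation.
Hadhb promoter: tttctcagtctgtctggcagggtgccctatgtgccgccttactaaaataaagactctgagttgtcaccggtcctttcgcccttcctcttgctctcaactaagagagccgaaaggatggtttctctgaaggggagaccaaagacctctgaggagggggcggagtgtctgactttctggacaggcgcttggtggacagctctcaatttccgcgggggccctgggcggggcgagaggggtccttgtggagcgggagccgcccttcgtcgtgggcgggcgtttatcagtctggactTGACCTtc
AGGTCA on either strand occurred in 12.9% of the 12580 promoters of tested genes and in 15.7% of all 27457 promoters of this length. The match is thus a description of the sequence only. The windows of Abcd3 and Etfdh, the other oxidation genes in all 4 fits, were searched too and held 0 matches each.

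Both neighbours rose and passed on the deposited values with all arrays, and only Hadhb passed after quantile normalization. Hadhb had deposited signals of 9.12, 9.02, 9.20, 8.84 and 9.05 on the safflower arrays, against 8.53, 8.57, 8.70 and 8.58 on the low-fat arrays. After quantile normalization it had 9.05, 8.99, 9.15, 8.82 and 8.95 on the safflower arrays, against 8.57, 8.62, 8.80 and 8.60 on the low-fat arrays. The groups did not overlap under either scaling, and Hadhb rose by 0.45 (SE 0.07) and 0.35 (SE 0.07, limma adjusted p = 0.0129). Hadha had 10.50, 10.35, 10.46, 10.21 and 10.45 on the safflower arrays, against 10.22, 10.20, 9.99 and 9.998 on the low-fat arrays, with overlap between safflower array 4 and low-fat array 1. Its log2 change was 0.29 (adjusted p = 0.0215) on the deposited values, 0.26 (adjusted p = 0.0507) without low-fat array 3 and 0.03 (SE 0.14, adjusted p = 0.915) after quantile normalization. The low-fat arrays of Hadha had an SD of 0.1242 on the deposited values and 0.3082 after quantile normalization. The difference between the changes of the 2 genes was not tested.

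Phospholipid genes had 14 of 36 members higher and 1 lower on the deposited values (median 0.20), 8 higher after quantile normalization (median 0.10) and 6 higher in all 4 fits, beside 22.9%, 10.1% and 5.67% of all genes higher. Without low-fat array 3 the quantile fit gave 6 higher and 1 lower (median 0.06). Pcyt1b, of phosphatidylcholine synthesis, rose by 0.32 on the deposited values and 0.20 after quantile normalization, and Agpat5, which adds an acyl chain to lysophosphatidic acid, by 0.45 and 0.30. Pnpla8, a calcium-independent phospholipase, rose by 0.39 and 0.21, and Crls1, which makes the mitochondrial lipid cardiolipin, by 0.24 and 0.35. Lpin2, a phosphatidic acid phosphatase, rose by 0.19 under both scalings, and Lypla1, a lysophospholipase, by 0.20 and 0.29.

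Eicosanoid genes went both ways. Of 22 tested, 2 rose and 6 fell on the deposited values (median -0.12), and 1 rose and 2 fell after quantile normalization (median 0.03). Beside them, 16.9% and 4.37% of all genes fell. Lta4h, which makes leukotriene B4, rose in all 4 fits: it had 8.61, 8.36, 8.57, 8.27 and 8.62 on the safflower arrays, against 8.16, 8.10, 7.99 and 8.10 on the low-fat arrays (0.40, SE 0.08, and 0.37 after quantile normalization). The receptors Ptgir, of prostacyclin, and Ptger1, of prostaglandin E2, fell in all 4 fits. Ptgir had 7.32, 7.35, 7.43, 7.44 and 7.21 on the safflower arrays, against 7.92, 7.76, 7.65 and 7.70 on the low-fat arrays (-0.41, SE 0.07, and -0.31). Ptger1 had 7.91, 7.91, 7.89, 7.88 and 7.82 on the safflower arrays, against 8.30, 8.17, 8.12 and 8.16 on the low-fat arrays (-0.31, SE 0.05, and -0.30). In all 3 genes the groups did not overlap. Ptgs2, the inducible cyclooxygenase, did not pass (0.22, adjusted p = 0.236, and 0.32, adjusted p = 0.16).

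Cholesterol synthesis and uptake had 11 of 25 members higher on the deposited values (median 0.24), 3 after quantile normalization (median 0.09) and 0 in all 4 fits. Without low-fat array 3 the quantile fit gave 0 higher and 1 lower. Msmo1, a sterol oxidase, kept a change of 0.22 in that fit (adjusted p = 0.0626). Cholesterol efflux had 5 of 12 higher and endocannabinoid genes 2 of 12 higher and 1 lower on the deposited values, and neither list had a call after quantile normalization.

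Mitochondrial ribosome and import genes had 14 of 26 higher on the deposited values (median 0.19), 8 after quantile normalization (median 0.14) and 4 in all 4 fits. Besides Mrpl1 these were Mrpl3 (0.25 and 0.31) and Mrps30 (0.20 and 0.26) of the ribosome and Tomm70 (0.48 and 0.32), a receptor of the import machinery. The tricarboxylic acid cycle had 15 of 22 higher on the deposited values (median 0.25) and 2 after quantile normalization (median 0.06), both in all 4 fits: Dld (0.45 and 0.32), a subunit of the pyruvate dehydrogenase complex, and Sucla2 (0.40 and 0.25), of succinyl-CoA synthetase. Among nuclear genes of the respiratory chain, 18 of 39 were higher on the deposited values (median 0.20), against 1 higher and 1 lower after quantile normalization (median 0.06). Cox5b (0.20 and 0.24), a subunit of cytochrome c oxidase, was its member in all 4 fits.

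Splicing factors of the hnRNP and SR families had 20 of 44 higher on the deposited values (median 0.21), 4 after quantile normalization (median 0.08) and 3 in all 4 fits. Without low-fat array 3, 24 were higher on the deposited values and 10 after quantile normalization, beside 18.9% and 10.9% of all genes. The quantile median was then 0.14, beside -0.0013 for all genes. Hnrnph2, a regulator of splicing, had 9.57, 9.44, 9.54, 9.28 and 9.58 on the safflower arrays, against 8.60, 8.76, 8.86 and 8.92 on the low-fat arrays. It rose by 0.70 (SE 0.09, limma adjusted p = 0.00370) and 0.56 (adjusted p = 0.00946), with no overlap under either scaling. Hnrnpll (0.24 and 0.23) and Ptbp3 (0.17 and 0.18) were smaller, and Ptbp3 did not pass on the deposited values without low-fat array 1 or 2 or safflower array 1, 3 or 5 (adjusted p = 0.0503 to 0.0815).

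Proteasome subunits had 19 of 34 higher on the deposited values (median 0.22) and 5 after quantile normalization (median 0.05), all 5 in all 4 fits. They were Psmd10 (0.47 and 0.51), Psma3 (0.49 and 0.47), Psmc6 (0.44 and 0.29), Psmd14 (0.31 and 0.25) and Psmd5 (0.15 and 0.23), which are core, cap or assembly factors of the particle. Ubiquitin-conjugating enzymes had 22 of 31 higher and 1 lower on the deposited values, and 6 higher and 1 lower after quantile normalization. In all 4 fits 5 rose, among them Ube2w (0.49 and 0.45) and Ube2q2 (0.42 and 0.38), and Ube2c, the enzyme of mitotic cyclin destruction, fell (-0.31 and -0.22). Heat shock and unfolded protein genes had 20 of 35 higher on the deposited values and 4 after quantile normalization, the 4 being Hspa4l (0.46 and 0.27), Eif2ak3 (0.27 and 0.29), Dnaja2 (0.25 and 0.16) and Dnajb4 (0.35 and 0.22). Translation factors had 22 of 37 higher on the deposited values and 2 after quantile normalization, with Eif2s1 (0.41 and 0.36) in all 4 fits. Cytosolic ribosomal proteins had 8 of 44 higher on the deposited values (median 0.14), and 1 higher and 1 lower after quantile normalization (median 0.00).

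Genes of neurons and synapses were higher on the deposited values and lost nearly all calls after quantile normalization. Neuron markers had 14 of 18 higher (median 0.33), synaptic vesicle genes 21 of 37 (median 0.31), AMPA, NMDA and GABA-A receptor subunits 13 of 19 (median 0.32) and kinesins, dyneins and tubulins 31 of 46 (median 0.27), with 0 lower in each. After quantile normalization 1, 1, 1 and 3 members rose, with medians of 0.17, 0.09, 0.17 and 0.10, beside 0.04 for all genes. Without low-fat array 3 those medians were -0.0025, 0.0105, 0.10 and 0.0286, beside -0.0013 for all genes, and 0, 1, 1 and 3 members rose. In all 4 fits there were 0, 1, 1 and 2: Sypl1 (0.33 and 0.33), a vesicle membrane protein, Gria3 (0.47 and 0.29), an AMPA receptor subunit, and the motor genes Kif2a (0.39 and 0.26) and Dync1i2 (0.32 and 0.20). Potassium channels had 15 of 40 higher on the deposited values (median 0.26) and 1 after quantile normalization, and sodium, calcium and chloride channels and exchangers 24 of 38 (median 0.29) and 2. Clcn3 (0.25 and 0.15), a chloride-proton exchanger of endosomes, was the channel gene in all 4 fits. The mean signal of the neuron markers was 10.665 to 11.016 on the safflower arrays, against 10.376 to 10.720 on the low-fat arrays, so the groups overlapped. Low-fat array 3 was the lowest.

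Syt1, the calcium sensor of vesicle release, shows how the scalings part at high signal. Its deposited signals were 12.11, 12.08, 11.90, 11.85 and 12.09 on the safflower arrays, against 11.59, 11.80, 11.59 and 11.51 on the low-fat arrays, with no overlap (0.38, SE 0.08, limma adjusted p = 0.00453). After quantile normalization they were 12.20, 12, 12.11, 11.36 and 12.24 on the safflower arrays, against 12.15, 12.18, 11.20 and 11.35 on the low-fat arrays. Safflower array 4 and low-fat arrays 3 and 4 then stood apart from the other 6, and the change was 0.26 (SE 0.23, adjusted p = 0.4755). Snap25, its partner in the release machinery, had the same arrays low after quantile normalization, at 11.58 on safflower array 4 and 11.31 and 11.79 on low-fat arrays 3 and 4, against 12.36 to 12.53 on the rest.

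**Figure D3:**
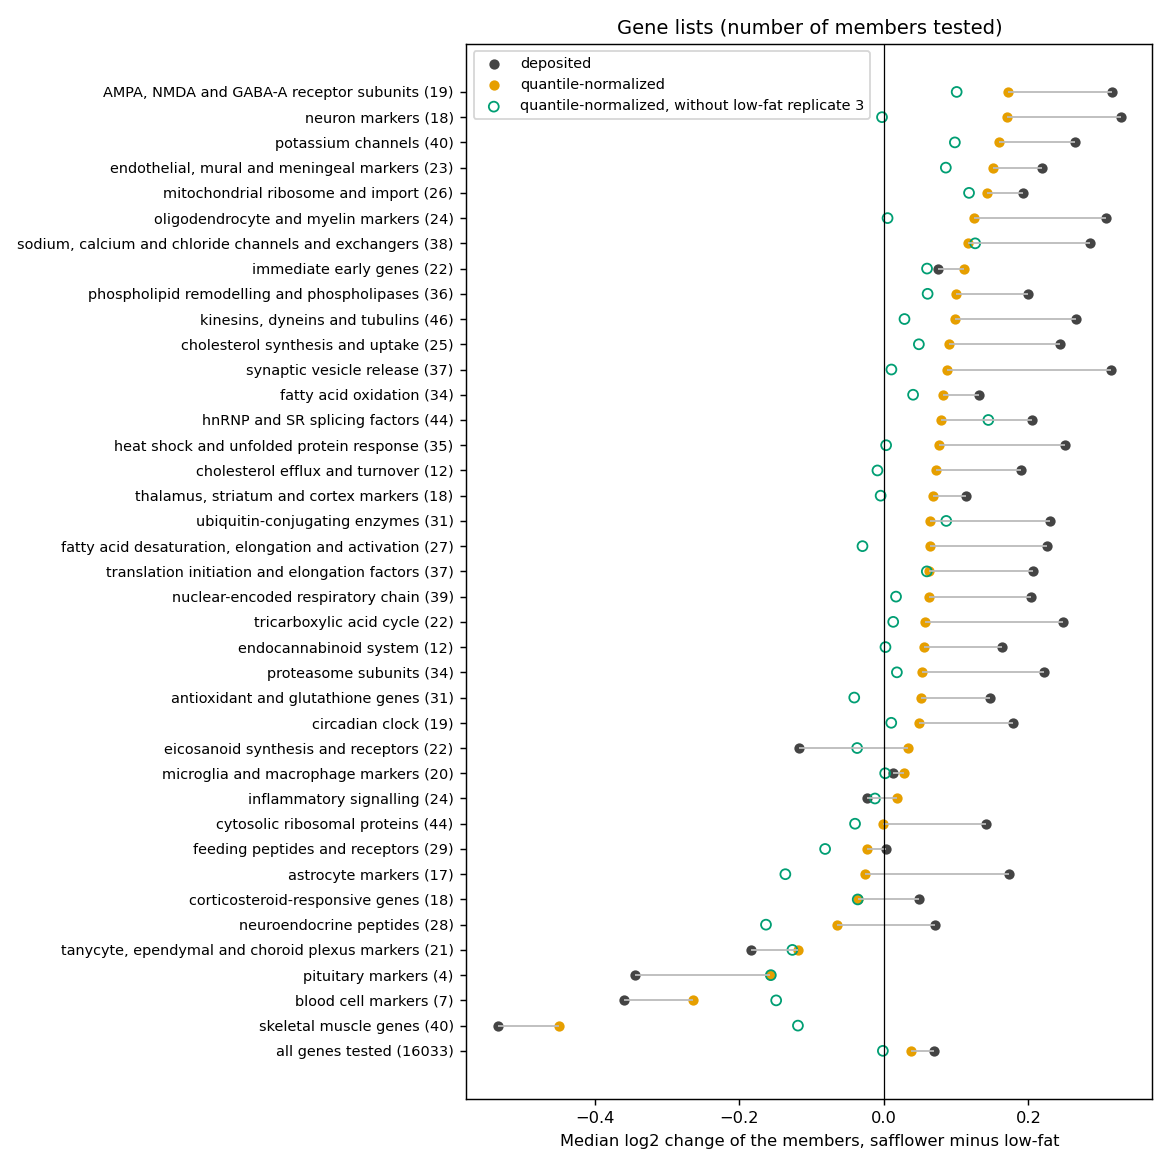
Median log2 change, safflower minus low-fat, of the tested members of 38 gene lists and of all genes tested (rows; number of members in brackets), on deposited values (black), after quantile normalization (orange) and after quantile normalization without low-fat array 3 (open green). The x axis is the log2 change. Neuron markers have 0.33, 0.17 and -0.0025 in that order, and skeletal muscle genes -0.53, -0.45 and -0.12.

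Among neuroendocrine peptides and their processing enzymes, 7 of 28 rose and 3 fell on the deposited values, and 0 rose and 3 fell after quantile normalization (median -0.06). The shares of all genes that fell were 16.9% and 4.37%. Ghrh and Qrfp fell in all 4 fits, 2 of 28 beside 3.56% of all genes. Ghrh, which drives growth hormone release from the pituitary, had 7.59, 7.91, 7.97, 7.99 and 7.60 on the safflower arrays, against 8.23, 8.37, 8.25 and 8.43 on the low-fat arrays. After quantile normalization it had 7.65, 7.94, 7.99, 7.98 and 7.67 on the safflower arrays, against 8.23, 8.40, 8.30 and 8.43 on the low-fat arrays. The groups did not overlap under either scaling, which was a condition for the leading genes, Ghrh among them. Ghrh changed by -0.51 (SE 0.09, limma adjusted p = 0.00379) and -0.50 (SE 0.08, adjusted p = 0.00946), a level 0.70 and 0.71 times that of the low-fat arrays. Its deposited means were 7.811 on the safflower and 8.318 on the low-fat arrays, near the highest background means of 8.159 and 8.253. The part of the background in this change was not tested. Qrfp, the precursor of a peptide that promotes feeding in rodents, changed by -0.28 (adjusted p = 0.0111) and -0.40 (adjusted p = 0.0109).

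Feeding peptides and receptors had 2 of 29 members higher and 3 lower on the deposited values, 1 higher after quantile normalization and 0 in all 4 fits. Agrp, the appetite-promoting peptide of the arcuate nucleus, had 6.88, 6.99, 6.84, 6.87 and 6.59 on the safflower arrays, against 7.24, 7.26, 7.09 and 7.24 on the low-fat arrays. It fell on the deposited values (-0.37, SE 0.10, limma adjusted p = 0.00917) and did not pass after quantile normalization (-0.20, adjusted p = 0.151), where the groups overlapped. Npy, made by the same neurons, had 9.31, 9.74, 9.14, 9.95 and 9.69 on the safflower arrays, against 9.50, 9.96, 9.85 and 9.66 on the low-fat arrays (-0.18, SE 0.14, adjusted p = 0.317). Pomc, the precursor of the appetite-suppressing melanocortins, had 7.82, 7.95, 7.93, 8.23 and 7.49 on the safflower arrays, against 8.13, 8.07, 8.13 and 8.29 on the low-fat arrays (-0.27, SE 0.20, adjusted p = 0.283). Both overlapped between the diets.

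Lists of inflammation, stress and rhythm held few genes in all 4 fits. Inflammatory signalling had 2 of 24 higher and 9 lower on the deposited values, beside 16.9% of all genes lower. After quantile normalization it had 2 higher with 0 lower. Traf6 (0.35 and 0.29), an adaptor of innate immune receptors, was its member in all 4 fits. Circadian clock genes had 5 of 19 higher on the deposited values and 1 after quantile normalization, immediate early genes 1 of 22 higher and 1 lower, then 0, and corticosteroid-responsive genes 2 of 18 higher, then 1. None of these last 3 lists had a member in all 4 fits. Antioxidant genes had 10 of 31 higher on the deposited values and 2 higher with 1 lower after quantile normalization, with Prdx3 (0.36 and 0.27), the peroxiredoxin of mitochondria, in all 4.

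Among glial and vessel markers, microglia had 2 of 20 higher, astrocytes 6 of 17, oligodendrocytes 4 of 24 and endothelial and mural cells 5 of 23 on the deposited values, beside 22.9% of all genes. After quantile normalization these were 1, 0, 0 and 1, beside 10.1%. P2ry13, a purinergic receptor of microglia, was the member in all 4 fits, 1 of 20 beside 5.67% of all genes, with 8.52, 8.46, 8.31, 8.29 and 8.40 on the safflower arrays, against 7.73, 8.05, 7.72 and 8.10 on the low-fat arrays (0.49, SE 0.09, and 0.50 after quantile normalization). Over the 20 microglia markers the mean signal ranged from 8.231 to 8.422 on the safflower and from 8.128 to 8.336 on the low-fat arrays. The marker means thus overlapped while P2ry13 did not.

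Markers of tanycytes, ependyma and choroid plexus had 8 of 21 lower on the deposited values (median -0.18) and 4 lower after quantile normalization (median -0.12). Those 4 passed in all 4 fits. Of all genes 16.9%, 4.37% and 3.56% were lower in the same order. The list median was 0.03 with median centring, which moved the median of all genes to 0.28. Aqp1, a water channel of the choroid plexus, had 7.86, 7.64, 7.81, 7.76 and 7.69 on the safflower arrays, against 8.17, 8.05, 8.18 and 7.96 on the low-fat arrays (-0.34, SE 0.06, and -0.31). Kcne2 (-0.30 and -0.21), Slc4a5 (-0.27 and -0.21) and Drc12 (-0.29 and -0.25) were the others. Ttr, the defining transcript of the choroid plexus, did not pass (-0.18, adjusted p = 0.0782, and -0.05, adjusted p = 0.657).

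Of 40 tested skeletal muscle genes, 23 fell on the deposited values (median -0.53) and 7 after quantile normalization (median -0.45), beside medians of 0.07 and 0.04 and 16.9% and 4.37% lower among all genes. The mean signal of the list was 7.286 to 7.475 on the safflower arrays. It was 8.903 on low-fat array 3 and 7.531 to 7.766 on the other low-fat arrays, all above the safflower range. After quantile normalization the safflower range was 7.278 to 7.525, against 8.951 on low-fat array 3 and 7.469 to 7.705 on the other low-fat arrays, so that the groups then overlapped.

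Lists of other tissues that a dissection can include were short. Pituitary markers had 2 of 4 tested members lower on the deposited values and blood cell markers 2 of 7, with 0 of either after quantile normalization. The shares of all genes lower were 16.9% and 4.37%. Markers of thalamus, striatum and cortex had 1 of 18 higher and 1 lower, and Emx1, a transcription factor of the cortex, fell in all 4 fits (-0.25 and -0.25) but not on the deposited values without low-fat array 1. Low-fat array 3 had the highest mean of the low-fat arrays for both lists. For pituitary markers it was 7.965, against 7.675 to 7.746 on the other low-fat and 6.819 to 7.711 on the safflower arrays. For blood cell markers it was 9.490, against 8.685 to 9.331 on the other low-fat and 8.683 to 9.063 on the safflower arrays. The part of any of these markers in the other results was not tested.

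Without low-fat array 3 the median of the skeletal muscle list was -0.27 on the deposited and -0.12 on the quantile-normalized values, and 26 and 9 members fell. Tnni2, Tcap, Cacng1, Tnnc1, Myoz1, Tnni1 and Myl2 fell in all 4 fits. Tnni2, fast troponin I, had 7.84, 7.90, 7.87, 7.97 and 7.87 on the safflower arrays, against 8.52, 8.37, 9.10 and 8.33 on the low-fat arrays. Its change was -0.69 (SE 0.12) with low-fat array 3 and -0.52 without it, and -0.71 and -0.52 after quantile normalization. Myl11, fast myosin light chain, had 6.58, 6.63, 6.63, 6.25 and 6.51 on the safflower arrays, against 7.19, 6.86, 9.29 and 6.89 on the low-fat arrays. Its change was -1.04 (adjusted p = 0.0341) and -0.46 without low-fat array 3, and it did not pass after quantile normalization (-0.89, adjusted p = 0.153). The safflower mean of Myl11, 6.519, lay below the filter of 6.58, so the safflower side was at the floor. The low-fat mean of 7.555 helped the gene to pass that filter. The flaxseed arrays, at 7.342 to 7.496 for the list mean, reached slightly above the safflower range.

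**Figure D4:**
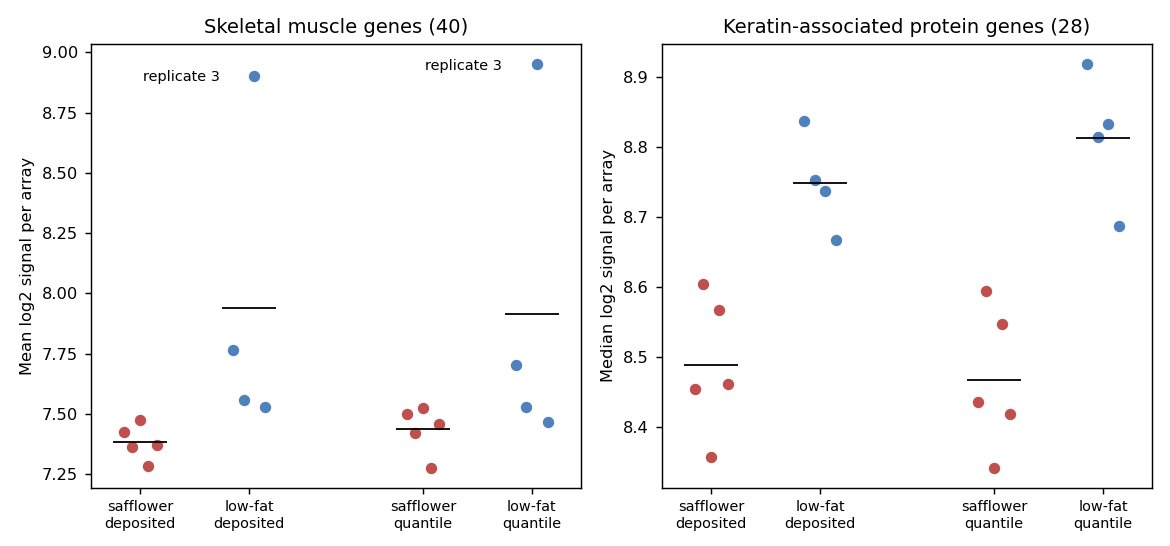
Signal per array of the 40 tested skeletal muscle genes (left, mean) and of the 28 tested keratin-associated protein genes (right, median), on deposited values and after quantile normalization. Each point is an array (y axis, log2 signal), the lines are group means, and safflower (n = 5) is left of low-fat (n = 4). Low-fat array 3 stands at 8.903 on the left, and all safflower arrays lie below all low-fat arrays on the right under both scalings.

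Keratin-associated protein genes, whose products cross-link keratins in hair, were singled out after their values were seen, because 3 of the 14 leading lower genes belong to them. Of 28 tested, 26 fell on the deposited values and 24 after quantile normalization, and 23 fell in all 4 fits with 0 higher, beside 3.56% of all genes. Their median change was -0.33 on the deposited values, -0.38 after quantile normalization and -0.12 with median centring, and -0.39 after quantile normalization without low-fat array 3. The median signal of the family was 8.455, 8.604, 8.357, 8.568 and 8.462 on the safflower arrays, against 8.837, 8.753, 8.737 and 8.668 on the low-fat arrays. Low-fat array 3, highest in muscle genes, was not highest here. The members are similar in sequence, so probes may not separate them and the genes are not independent. The part of the background features in these signals was not tested.

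The genes that passed in all 4 fits also differed in size. With spans from RefSeq (GRCr8), the median gene span was 37.7 kb for 904 of the higher genes (interquartile range 18.1 to 76.7) and 6.1 kb for 568 of the lower genes (2.0 to 15.9), beside 19.5 kb for all 15972 with a span. Their median log2 signals were 7.99 and 7.83, beside 8.10 for all. Signal also differed along the span groups, with medians of 7.88 in the shortest and 8.44 in the longest, and its part in the span pattern was not tested. Of the genes shorter than 5.02 kb, 2.88% were higher and 7.86% lower. Of those longer than 66.3 kb, 8.45% were higher and 0.595% lower. The median change ran from -0.05 in the shortest to 0.18 in the longest group on the deposited values, and from -0.04 to 0.11 after quantile normalization. This is across genes, which are not independent replicates, and it was not tested.

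**Figure D5:**
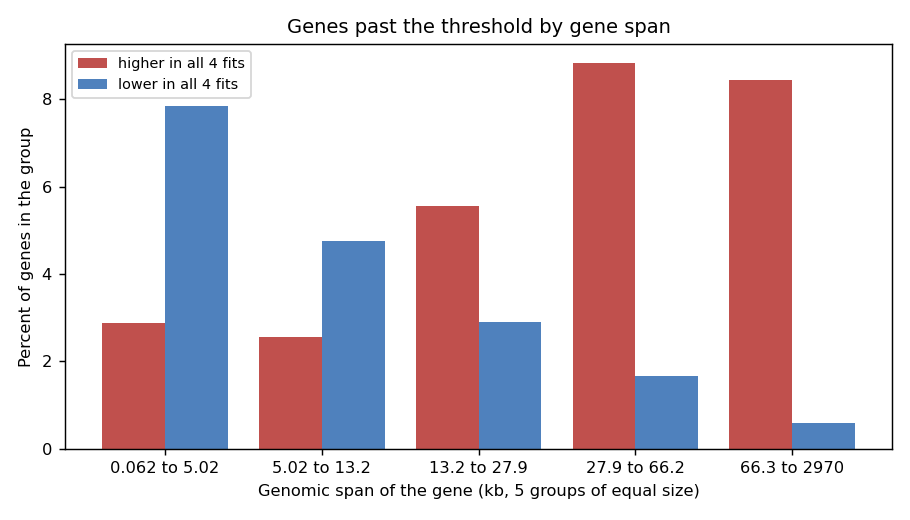
Share of genes in each of 5 groups of equal size by genomic span (x axis, kb) that were higher (red) or lower (blue) in all 4 fits (y axis, percent of the genes in the group). The higher share is 2.88% in the shortest and 8.45% in the longest group, and the lower share is 7.86% and 0.595%.

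The flaxseed diet, with the same share of energy from oil, gave 0 calls against the same low-fat arrays by limma on either scaling (3226 and 2029 genes at an unadjusted p under 0.05). Safflower against flaxseed gave 0 as well (2480 and 1406). These comparisons share arrays with the one above, so values are only set side by side. Ghrh had a safflower minus low-fat change of -0.51 and a flaxseed minus low-fat change of -0.11 (adjusted p = 0.488), and safflower minus flaxseed was -0.40 (adjusted p = 0.246). Hadhb had 0.45 with safflower and 0.24 with flaxseed, Abcd3 0.52 and 0.26, P2ry13 0.49 and 0.29, and Tnni2 -0.69 and -0.44, the flaxseed changes at adjusted p = 0.205 each. A p that misses the threshold does not show that the high-fat diets acted alike.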

How the data were processed

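Total RNA (100 ng an array) was labelled with the GeneChip WT PLUS kit, per the labels' protocols. The deposited values are log2 signals that the authors made with RMA. Transcriptome Analysis Console and Affymetrix Expression Console are listed too, all per the submitters' processing notes. For the transcript clusters, the genome build used was not given in these sources. Values ran from 1.99 to 14.46, and the number of arrays limits the precision.

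Of 70580 transcript clusters, 1738 were control features, 23446 had exactly 1 symbol, 505 several and 44891 none. The IDs of 22077 matched RefSeq (GRCr8). The cluster of highest mean was taken for the 1182 genes with several. The median of all cluster means set the filter. The 3 diet means of the 13 arrays were fitted in R 4.3.3 by lmFit and eBayes of limma 3.58.1 (10 residual degrees of freedom, two-sided), with Benjamini-Hochberg adjustment over 16033 genes at 0.05. The same fit was run after quantile normalization of all clusters and without low-fat array 3. It was tested on simulated arrays with known changes and noise drawn independently for each gene. No difference in spread or background between arrays was simulated, so that test does not bear on such differences. The 38 lists held 1132 symbols, 1070 on the array and 1023 tested.

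Named were the 14 highest and 14 lowest genes by quantile-normalized change among 937 that passed all 4 fits without overlap, the 2 smallest p of each list, and the further members of the fatty acid, eicosanoid, cholesterol, splicing and muscle lists in all 4 fits. Other list members in all 4 fits, and Oxt, Pmch, Hcrt, Sst, Avp, Hadha, Npy, Pomc, Myl11, Cpt1a, Ptgs2, Fads1, Fads2 and Ttr, were chosen after their values were seen. Provisional symbols, olfactory receptors and microRNA genes were counted but not named, and this exclusion was extended to like-genes and RT1 genes after values were seen. The members and lists were chosen with earlier results of these data known.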

Additional observations from a re-analysis of the deposited data

Results flagged for a closer look

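Among 220 groups of 4 or 5 arrays checked, 9 held an array far from the others relative to the range of its group (4.09%), where chance gives about 1 in 20. On the safflower side, Homer1, a scaffold of synapses, was 9.31 on array 5 against 8.48 to 8.70 on the others, and Nr3c2, the mineralocorticoid receptor, 8.37 on the same array against 8.07 to 8.13. Safflower array 4 was low in Glul, glutamine synthetase of astrocytes, at 12.51 against 12.78 to 12.89, and in Snap25, at 12.12 against 12.40 to 12.50. On the low-fat side, array 3 had 7.09 in Agrp against 7.23 to 7.26, 7.22 in Vav3 against 7.37 to 7.39, and 9.58 in Hspa4l against 9.54 on each of the others, a small gap. Kitlg was 7.22 on low-fat array 2 against 6.81 to 6.88, and Cnr1, the cannabinoid receptor, 8.60 on low-fat array 1 against 8.81 to 8.84. Homer1 (0.37) and Nr3c2 (0.19) passed on the deposited values, but not without safflower array 5, nor without several other arrays in turn.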

How the results depend on the processing

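The count of 6377 genes was 2326 with quantile normalization, 3107 with quantile normalization and low-fat array 3 left out, 3099 with cyclic loess, 9620 with median centring, which moved the median change of all genes to 0.28, 10003 with no filter on low signal (39.1% higher) and 3379 with a filter at the 75th percentile (89.8% higher). Leaving out 1 array gave 4512 to 6713, and after quantile normalization 880, 1275 and 2252 without low-fat arrays 1, 2 and 4 and 1031, 1734, 1299, 2687 and 949 without safflower arrays 1 to 5, an alternative chosen after seeing the data. The count of 1480 was 625 with the filter at the 75th percentile, 3233 with array weights, and 0 to 2379 when 1 array was left out. Deviations of same-numbered arrays correlated at 0.325, 0.176, -0.264 and 0.195, and not every array correlated best with its own number (0.454 for safflower array 3 with low-fat array 1), so the numbers were not taken to pair the arrays. With the replicate number as a block the counts of 6377, 2326 and 1480 were 4652, 1 and 1, the last with 2685 genes at an unadjusted p under 0.05 in each of the 4 fits. The difference in interquartile range was 0.177 to 0.309 on other sets of transcript clusters and 0.200 to 0.242 with 1 array left out. Of the 109 named genes, 66 kept their direction and call with quantile normalization, 42 lost the call and 1 turned, Ntrk2 (-0.0294). With low-fat array 3 also left out, 64 kept both and Ntrk2 (-0.1376), Cpe (-0.0692), Rpl4 (-0.0253), Slc1a2 (-0.0303) and Sc5d (-0.0031) turned. With cyclic loess 66 kept both and Eef1a1 (-0.0796) and Slc1a2 (-0.0185) turned, each of these values short of the threshold. The cause was not tested. Median centring left 87 of 109 past the threshold in the same direction, the filter at the 75th percentile 80 of 80, and each of the other alternatives at least 101. With 4 and 5 arrays, the unadjusted 95% interval reached a median of about 0.17 to either side of a log2 change. Calls rested on the adjusted p, which is stricter, so larger changes could also miss the threshold.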

Other observations

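Grouping genes by the letters that start their symbol, a description made after the values were seen, placed other families of at least 20 tested members at the low end with the keratin-associated proteins. Over all genes tested the quantile-normalized median was 0.04, with 5.67% higher and 3.56% lower in all 4 fits. After quantile normalization the median change was -0.20 for 145 microRNA genes (28 lower and 1 higher in all 4 fits), -0.16 for 26 Prss serine proteases (6 lower), -0.15 for 77 olfactory receptors (17 lower), -0.14 for 41 collagens (8 lower, and a median of 0.02 with median centring) and -0.11 for 41 keratins (11 lower). At the high end stood 33 Cep genes of the centrosome (0.20, 5 higher), 29 Med genes, mostly of the Mediator complex (0.17, 7 higher), 21 Hspa genes (0.16, 2 higher) and 23 Nup genes of the nuclear pore (0.15, 4 higher). Members of a family can share probe sequence, and signals of microRNA genes on such arrays need not be mature microRNA.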
